A study of Danio rerio with 8 samples.

Results

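The transcripts of otx2b, pax6a and pbx4 are described here in whole zebrafish embryos with and without the transcription factor Pou5f3. These 3 genes were taken by their symbol in the platform annotation. Each was represented by 1 probe set, so they make up 3 of the 12477 probe sets in the deposited data, and no probe set with several symbols named any of them. The genes were chosen with results of these arrays known, and the values that chose them are not stated. Their signals and differences are therefore given as a description, with no test.

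Total RNA was measured on 8 Affymetrix arrays with 2 biological replicates in each of 4 groups, and each array was made from 120 pooled embryos. MZspg embryos carry allele m793 of spg, the locus that encodes Pou5f3, and lack its function both from the egg and from their own genome. The groups were MZspg and wild type (WT, crosses of the AB and TÜB strains) at 60% epiboly, 7 h after fertilisation, and MZspg and WT at 30% epiboly, 4.7 h after fertilisation. During epiboly the cells of the embryo spread over the yolk, and stages are named by the share of the yolk that is covered. The labels name no strain background for MZspg beyond the allele. They name timing from in vitro fertilisation or from the 4-cell stage of natural crosses, without saying which samples came by which route.

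Otx2b is a homeodomain factor of the future forebrain and midbrain, and Otx factors are needed for head development in vertebrates. Pax6a carries a paired domain and a homeodomain and marks the developing eye, forebrain and hindbrain. Pbx4 belongs to the TALE homeodomain proteins, which bind DNA together with Hox proteins. In zebrafish it is known from the lazarus mutant, with defects in hindbrain patterning, and its transcript is spread widely in the early embryo. Arrays of whole embryos hold no position, so the label of anterior neural genes could not be checked in space. They also cannot tell more cells of a type from more RNA per cell.

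In brief, otx2b and pbx4 had higher signals in MZspg than in WT at both stages, and pax6a had a clear signal on the MZspg arrays of 60% epiboly alone. At 60% epiboly the mean of otx2b was 7.67-fold and that of pbx4 3.37-fold the WT mean, while pax6a had no value in WT. The 3 genes differed between the stages in unlike ways. The signal of otx2b was higher at 60% than at 30% epiboly in both genotypes, that of pax6a in MZspg, and that of pbx4 overlapped between the stages in both.

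For otx2b, the 60% epiboly arrays read 799.2 and 704.6 in MZspg, against 102.3 and 93.62 in WT. The arrays of 30% epiboly read 80.68 and 18.19 in MZspg, against 5.026 on WT replicate 2, while the deposited table holds no value for WT replicate 1. Among the arrays with a value, the MZspg and WT signals did not overlap at either stage. Every array of 60% epiboly was above every array of 30% epiboly that had a value. At 60% epiboly the replicates of a genotype were close to each other, with means of 751.9 ± 66.9 in MZspg and 97.97 ± 6.14 in WT (SD, n = 2 each). At 30% epiboly the MZspg replicates lay far apart, at a mean of 49.43 ± 44.19 (SD, n = 2).

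On the scale of log2(signal + 9), otx2b was higher in MZspg by 2.83 (SE 0.491) at 60% epiboly and by 1.66 (SE 0.491) at 30% epiboly, where the empty WT cell was filled with a low value of 8.345. The 30% difference rested on the spread between 2 MZspg arrays: it was 0.80 when MZspg replicate 1 was dropped and 2.52 when replicate 2 was. Among 7375 probe sets tested, 23 had a higher log2 difference than otx2b at 60% epiboly and 40 at 30% epiboly. Between the stages otx2b was higher at 60% epiboly by 3.94 in MZspg and by 2.78 in WT. Leaving out one array moved the MZspg value between 3.08 and 4.80, again through the 2 MZspg arrays of 30% epiboly. The genotype difference was 1.17 larger at 60% than at 30% epiboly, with an SE of 0.694.

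The order of the otx2b levels, highest first, was MZspg at 60%, WT at 60%, MZspg at 30% and WT at 30% epiboly. The steps in that order were 2.83, 1.11 and 1.66 on the log2 scale. The middle step, between WT at 60% and MZspg at 30% epiboly, was smaller than the summed SDs of its neighbours, although their arrays did not overlap.

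**Figure D1:**
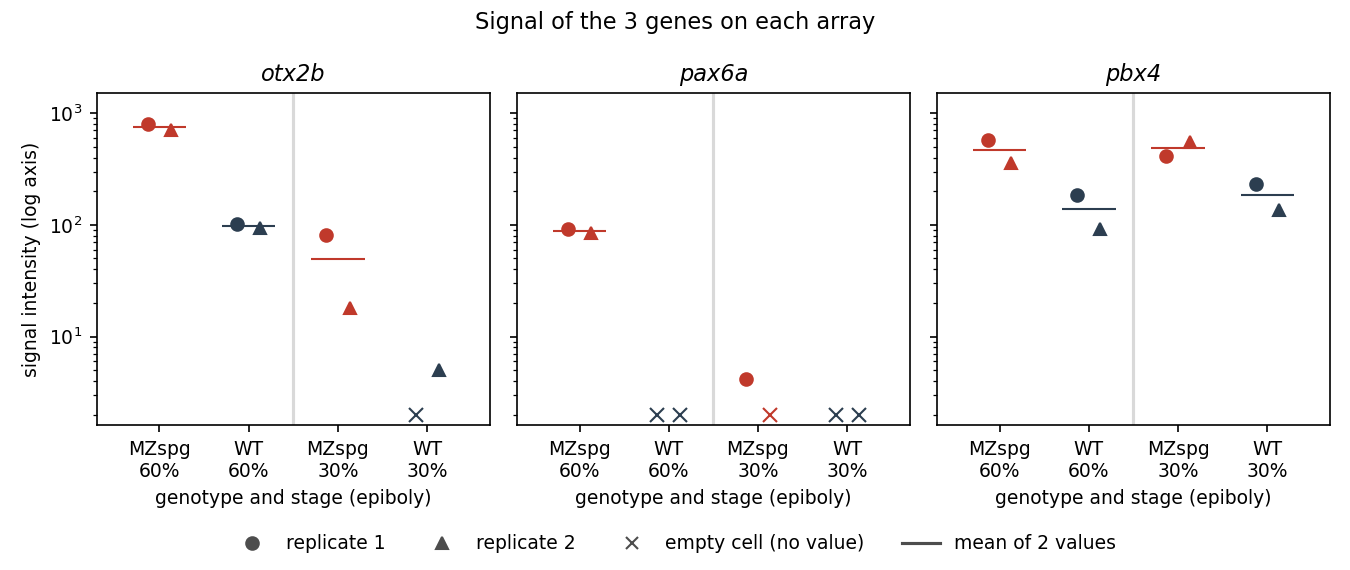
Signal intensity (log axis) of otx2b, pax6a and pbx4 on each array, by genotype and stage. Circles are replicate 1, triangles replicate 2, lines the mean of 2 values, and crosses near the axis mark cells with no deposited value. The otx2b signals of MZspg at 60% epiboly (799.2 and 704.6) are its highest, pax6a is above 10 on the MZspg arrays of 60% epiboly alone, and the 4 MZspg signals of pbx4 lie above its 4 WT signals.

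For pax6a, the arrays of 60% epiboly read 91.01 and 84.96 in MZspg, and the table holds no value on either WT array. At 30% epiboly 1 MZspg array read 4.132, and the other MZspg array and both WT arrays had no value. The gene thus had a value on 3 of 8 arrays, all of MZspg embryos, and its presence in the tested set came from the MZspg arrays of 60% epiboly. The meaning of an empty cell is not given in the sources used here, so a WT level of pax6a cannot be stated. Where a cell was empty and its replicate was not, 95% of the replicate signals lay under 24.62. At 60% epiboly the MZspg mean of 87.98 ± 4.27 (SD, n = 2) was 3.57-fold that bound. The bound is a percentile of other signals, so this is no strict minimum of the fold over WT.

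A log2 difference of pax6a rests on the value put into the empty WT cells, and no fill value other than 8.345 was tried. With that fill it also moved with the pseudocount: at 60% epiboly it was 2.48 with a pseudocount of 9 and 1.57 with one of 32. Between the stages in MZspg, with 1 of the 2 cells of 30% epiboly filled, it was 2.68 and 1.65 in the same way. No fold is given for the genotypes at 30% epiboly or for the stages in WT, where 1 and 0 values were deposited. In the order of levels, MZspg at 60% epiboly stood alone at the top, and the other 3 groups, at or near the filled value, could not be ordered.

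For pbx4, the 60% epiboly arrays read 574.5 and 359.8 in MZspg, against 185.9 and 91.55 in WT. At 30% epiboly they read 415.7 and 551.2 in MZspg, against 232.7 and 135.4 in WT. All 4 MZspg signals lay above all 4 WT signals, with 359.8 as the lowest in MZspg and 232.7 as the highest in WT. The means were 467.2 ± 151.8 in MZspg and 138.7 ± 66.7 in WT at 60% epiboly, and 483.5 ± 95.8 in MZspg and 184.0 ± 68.8 in WT at 30% epiboly (SD, n = 2 each).

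The ratio of those pbx4 means was 3.37 at 60% and 2.63 at 30% epiboly. On the log2 scale the genotype difference was 1.73 at 60% and 1.38 at 30% epiboly (SE 0.418 each), and 134 and 74 probe sets had higher ones. It was 0.34 larger at 60% than at 30% epiboly, less than its SE of 0.591. Between the stages pbx4 differed by -0.07 in MZspg and by -0.42 in WT, both within the overlap of the arrays. Leaving out one array moved these stage differences from -0.40 to 0.26 in MZspg and from -0.89 to 0.06 in WT, so they had no settled sign. The order of the pbx4 levels was MZspg at 30%, MZspg at 60%, WT at 30% and WT at 60% epiboly. The step between the genotypes (1.31) exceeded the summed SDs of its neighbours, while the steps within a genotype (0.07 in MZspg, 0.42 in WT) did not.

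The overlap of groups was counted with empty cells filled. These were both WT cells of pax6a at 60% epiboly and both at 30% epiboly. At 30% epiboly 1 WT cell of otx2b and 1 MZspg cell of pax6a were filled as well. The overlap of pax6a at 30% epiboly thus came from filled cells. So counted, at 60% epiboly 3 of the 3 genes were higher in MZspg without overlap, where 28.7% of the tested probe sets were. At 30% epiboly 2 of the 3 were, where 21.7% were. Between the stages otx2b and pax6a were higher at 60% epiboly without overlap in MZspg (29.9% of the tested probe sets), and otx2b in WT (28.4%). Since the genes were chosen on these arrays, nothing is read from these counts.

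Over the deposited probe sets, the signals had a common scale: each array ran from 1.991 to 7819 with a median near 67. Between 9655 and 10584 probe sets of an array had a value. Across the 7375 tested probe sets, with empty cells filled, the correlation between replicates on the log2 scale was 0.921 to 0.952. The signal of pou5f3, given as a check of the labels, was 1268 and 890.8 in MZspg against 2957 and 2214 in WT at 60% epiboly. At 30% epiboly it was 1292 and 1327 in MZspg against 2850 and 3166 in WT. The position of that probe set relative to the m793 change is not given in the sources used here, which limits the check.

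Replicate 2 of both genotypes at 60% epiboly stood apart in its spike-in controls, RNAs added for the hybridisation. Their geometric means were 736.4 in MZspg and 592.1 in WT. The other 6 arrays lay between 79.9 and 189.9. Within each set of 60% arrays the genotype differences were close to each other: 2.86 with low and 2.80 with high spike-ins for otx2b, 2.53 and 2.44 for pax6a with its WT cells filled, and 1.58 and 1.88 for pbx4. With both arrays of high spike-ins left out, otx2b differed between the stages by 4.03 in MZspg and 2.84 in WT, pax6a by 2.73 in MZspg, and pbx4 by 0.26 in MZspg and 0.06 in WT.

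At 30% epiboly the MZspg array with the higher otx2b signal also lay nearer to the later stage on the first principal component (57.29% of the variance). Its score was -26.82, against -54.17 for the other MZspg array. At 60% epiboly the MZspg scores were 43.2 for replicate 1 and 69.23 for replicate 2. There the array with the lower score had the higher otx2b signal (799.2 against 704.6). The WT scores were -46.68 and -35.61 at 30% and 24.12 and 26.72 at 60% epiboly. Whether what these scores measure has a part in the otx2b differences was not tested.

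None of the other members of the Otx, Pax and Pbx families that could be tested passed between the genotypes. At 60% epiboly otx1 read 64.25 and 67.66 in MZspg against 120.8 and 133.8 in WT, a log2 difference of -0.86 (adjusted p = 0.254 by limma). Its relative otx2a read 60.06 and 24.89 in MZspg against 127.9 and 66.45 in WT, -1.07 (adjusted p = 0.243). Both lay in the direction opposite to otx2b without passing the test. For pbx2 the 60% arrays read 125 and 111.7 in MZspg and 106.1 and 97.19 in WT, a difference of 0.20 (adjusted p = 0.781).

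None of these 3 relatives passed at 30% epiboly either, where the differences were 0.39 for otx1, -0.20 for otx2a and 0.56 for pbx2. In WT, otx2a was higher at 60% than at 30% epiboly by 1.80 (adjusted p = 0.0391) and pbx2 by 1.2 (adjusted p = 0.0478). Both of these calls were lost without any one of the 4 WT arrays (up to an adjusted p of 0.3 for otx2a and 0.242 for pbx2). In MZspg otx1 was lower at 60% epiboly by 1.26 on the log2 scale (-1.26, adjusted p = 0.0404), a call that was lost without any one of 6 arrays. Of the other TALE genes in the lists, pknox1.1 (-0.18) and tgif1 (-0.67, adjusted p = 0.169 by limma) did not pass at 60% epiboly. The paralog pax6b had a single value, 21.74 on MZspg replicate 2 of 60% epiboly. It was too dim to be tested, as were pax2a, pax2b, pax5, pax7a, pax9, pbx1a, meis1a, meis1b, meis2b, meis3, pknox1.2 and pknox2.

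A wider set of 122 neural genes in 5 lists, without otx2b, pax6a and pbx4, held 78 genes with a probe set and 34 bright enough to be tested. They comprise the Otx and Pax family, the Pbx family with other TALE genes, and genes of the eye field and forebrain. The last lists hold genes of the midbrain and hindbrain and of the neural plate in general. At 60% epiboly 3 of the 34 were higher and 3 lower in MZspg, 17.65% of those tested. Of all tested probe sets 4.52% were called, 2.28% higher and 2.24% lower. The median log2 difference of the 34 was -0.49, against 0.01 over all tested probe sets. At 30% epiboly none was higher and 2 were lower, where 1.68% of all tested probe sets were called, 0.407% higher and 1.27% lower. At an unadjusted p under 0.05, 3 were higher and 5 lower at that stage.

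The higher neural genes at 60% epiboly were dmbx1a, a homeobox gene of the future midbrain and diencephalon, her9, a Hairy-type repressor, and dlb, which encodes a Delta ligand of Notch. Like pax6a, dmbx1a had no value on any WT array. It read 69.40 and 141.2 in MZspg at 60% epiboly, with a mean of 4.28-fold the bound (adjusted p = 0.0193 by limma with the WT cells filled). At 30% epiboly it read 99.38 and 19.99 in MZspg.

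At 60% epiboly her9 read 203.5 and 466.4 in MZspg against 57.24 and 40.08 in WT, a log2 difference of 2.48 (SE 0.467, adjusted p = 0.0126). In the same groups dlb read 144.4 and 47.35 in MZspg against 5.163 and an empty cell in WT, 2.57 (adjusted p = 0.00913). These 3 calls each leaned on single arrays. That of dlb was lost without WT replicate 1 of 60% epiboly (adjusted p = 0.0516), and that of her9 without either array of replicate 2 at 60% epiboly (up to an adjusted p of 0.110). The call of dmbx1a was lost without any one of the 4 WT arrays, or without the second MZspg array of 60% epiboly (up to an adjusted p of 0.160).

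The lower neural genes at 60% epiboly were sox2, a SoxB1 factor of the neural plate, her3, a repressor of neurogenesis, and the forkhead gene foxb1a. For sox2 the arrays read an empty cell and 8.918 in MZspg against 225.4 and 152.0 in WT, -3.46 (adjusted p = 0.00182 by limma), and its second tested probe set also passed (-3.10, adjusted p = 0.0105). The gene her3 had no value on any MZspg array and read 124.9 and 88.26 in WT. Its WT mean was 4.33-fold the bound (adjusted p = 0.00154 by limma with the MZspg cells filled). The signals of foxb1a were 23.17 and 13.61 in MZspg against 218.0 and 155.4 in WT, -2.84 (adjusted p = 0.00223). Leaving out one array gave -3.73 to -3.19 for sox2, -2.95 to -2.49 for her3 and -3.09 to -2.59 for foxb1a. All MZspg cells of her3 hold the same fill value, so leaving out an MZspg array could not move its difference from -2.72. With empty cells left missing, no difference at 60% epiboly could be had for her3, nor for dmbx1a above. The calls of these genes thus rest on the fill.

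The filter on dim probe sets touches these counts. Of the 6 genes called at 60% epiboly, 5 reached the filter's signal in 1 genotype only, dmbx1a and dlb in MZspg and sox2, her3 and foxb1a in WT. Such a gene entered the test through the genotype where it was high, as pax6a did, so the counts support no statement on the neural genes as a whole. With the filter dropped, dlb (adjusted p = 0.0336), sox2 (0.0196), her3 (0.00727) and foxb1a (0.0192) passed by limma, and dmbx1a (0.0743) and her9 (0.0545) did not.

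**Figure D2:**
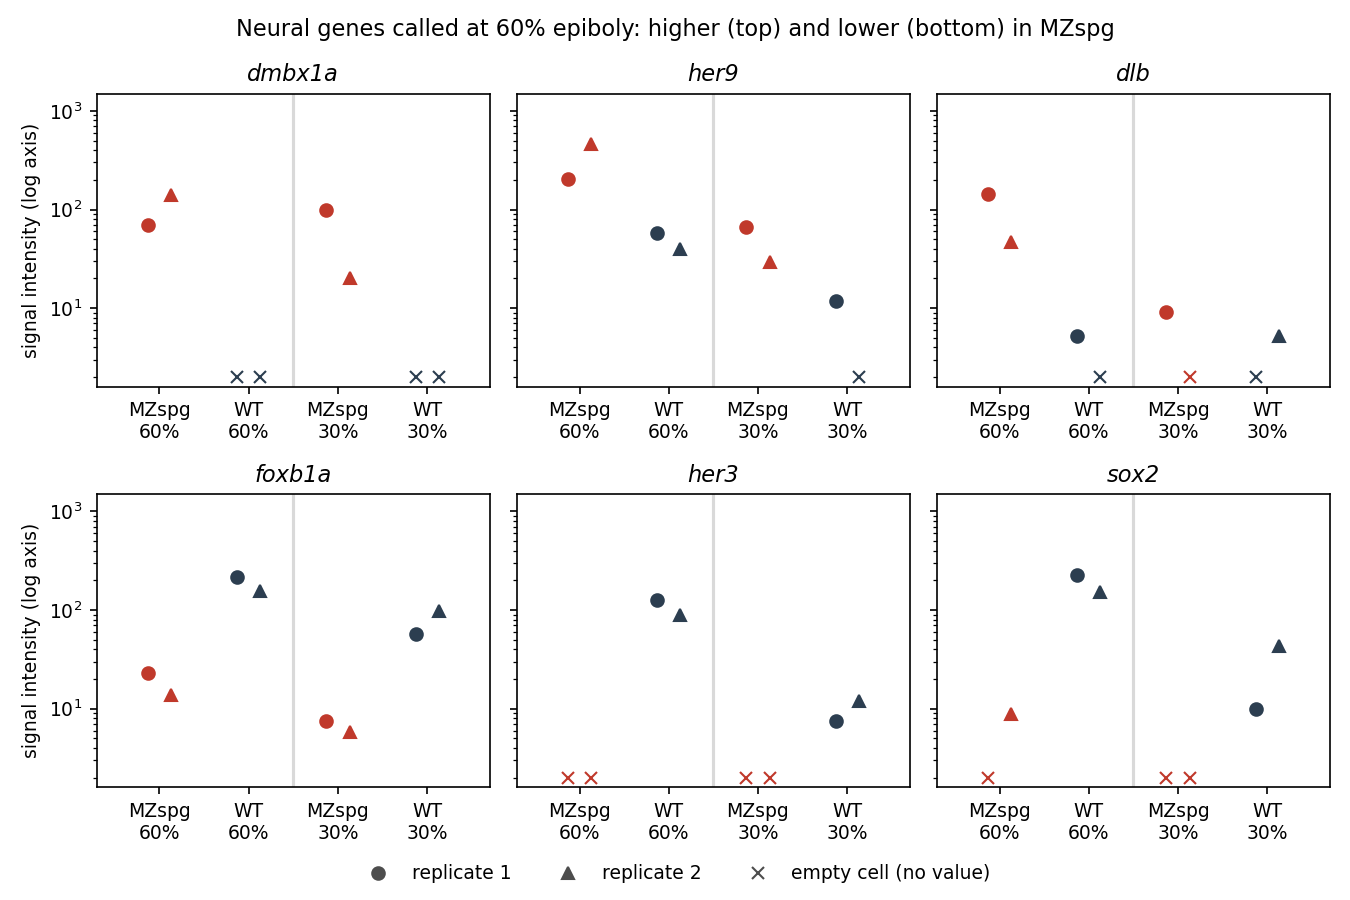
Signal intensity (log axis) on each array of the 6 neural genes called at 60% epiboly, higher in MZspg in the upper panels and lower in the lower ones. Circles are replicate 1, triangles replicate 2, and crosses mark cells with no deposited value. In WT dmbx1a has no value on any array, and in MZspg her3 has none.

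With both arrays of high spike-ins left out, 2 of the 34 neural genes were called at 60% epiboly. They were dlb (3.44, adjusted p = 0.0315) and her3 (-2.95, adjusted p = 0.0315). The other 4 kept their direction without passing: sox2 at -3.76 (adjusted p = 0.0647), foxb1a at -2.82 (0.0696), her9 at 1.68 (0.293) and dmbx1a at 2.18 (0.336), each an adjusted p by limma.

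At 30% epiboly the lower neural genes were foxb1a and sox11a, a SoxC factor. The signals of foxb1a were 7.526 and 5.839 in MZspg against 56.48 and 97.62 in WT, -2.42 (adjusted p = 0.00862). This call was lost without MZspg or WT replicate 2 of that stage (highest adjusted p = 0.161). The brightest probe set of sox11a read 78.91 and 49.33 in MZspg against 888.2 and 695.6 in WT, -3.47 (adjusted p = 0.000448), and passed whichever array was left out. At 60% epiboly this probe set read 197.7 and 298.2 in MZspg against 434.7 and 564.7 in WT and did not pass (adjusted p = 0.125). A second probe set of sox11a passed at both stages (-3.07, adjusted p = 0.00260 at 60%, and -3.11, adjusted p = 0.00383 at 30% epiboly), and the last at neither (-0.14 and -1.54).

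**Figure D3:**
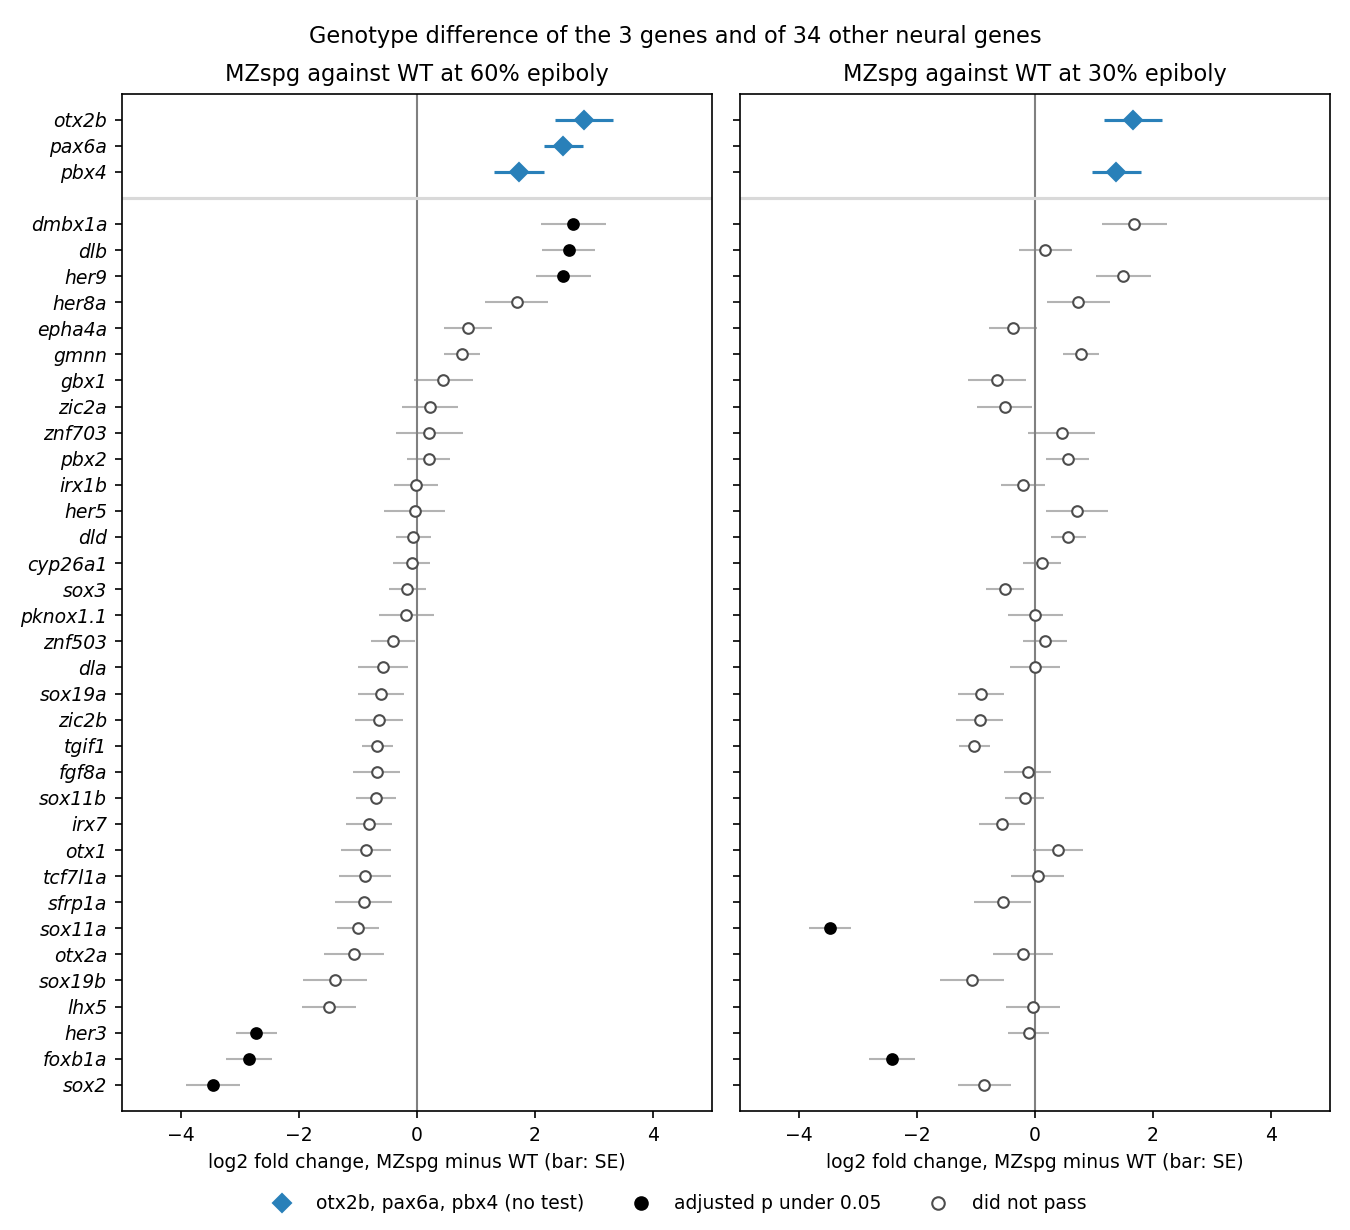
Log2 difference, MZspg minus WT, with its SE, at 60% (left) and 30% epiboly (right). Diamonds are otx2b, pax6a (at 60% epiboly alone) and pbx4, given with no test. The WT cells of pax6a and 1 WT cell of otx2b at 30% epiboly are filled. Circles are the 34 neural genes with empty cells filled, black where the adjusted p by limma lay under 0.05. At 60% epiboly 3 neural genes passed on each side of 0, and at 30% epiboly only foxb1a and sox11a passed, both lower in MZspg.

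Other genes that mark the neural plate at large did not pass between the genotypes. At 60% epiboly the SoxB1 gene sox3 read 949.1 and 969.6 in MZspg against 980.7 and 1178 in WT, a log2 difference of -0.16 (adjusted p = 0.800). A second, dimmer probe set of sox3 read 31.94 and 16.09 in MZspg against 104.1 and 60.14 in WT, without overlap. Its difference of -1.46 did not pass (adjusted p = 0.103 by limma), so the probe sets of sox3 disagreed in size. The differences of sox19a (-0.61, adjusted p = 0.374) and zic2b (-0.64, adjusted p = 0.375) did not pass either. The forebrain gene lhx5, at 140.6 and 148.7 in MZspg against 532.4 and 337.2 in WT, differed by -1.49 (adjusted p = 0.0826). Others lay in the opposite direction, also without passing. Of these her8a, a Hairy-type gene, read 1025 and 449.9 in MZspg against 216.6 and 191.7 in WT, 1.69 (adjusted p = 0.0913), and gmnn differed by 0.77 (adjusted p = 0.165) and zic2a by 0.22 (adjusted p = 0.818). Summed over the 34 neural genes, the signal was 9225 and 7631 in MZspg against 10796 and 9383 in WT at 60% epiboly.

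Like otx2b, part of the other neural genes had higher signals at 60% than at 30% epiboly. In MZspg 11 of the 34 neural genes were higher and 4 lower at 60% epiboly, where 32.6% of all tested probe sets were called, with 13.9% higher and 18.8% lower. In WT 8 were higher and 2 lower, where 13.7% of all were called, with 5.60% higher and 8.14% lower. The filter on dim probe sets touches these stage counts as well. The genes irx1b, epha4a, dla, dlb, her3 and otx2a, each called higher in MZspg, WT or both, reached its signal on no array of 30% epiboly. They entered the test through the stage where they were high. These counts and the medians below therefore support no statement on the neural genes as a whole. The counts leaned on single arrays: without MZspg replicate 2 of 30% or of 60% epiboly 6 and 8 neural genes were called in MZspg. In WT 0 were called without replicate 1 and 6 without replicate 2 of 30% epiboly, and 2 without replicate 1 and 5 without replicate 2 of 60% epiboly. The median log2 difference of the 34 was 0.61 in MZspg and 0.44 in WT, against -0.11 and -0.07 over all tested probe sets. Centring each array on its median took away only part of that shift of -0.11 in MZspg, with her9 moving from 2.56 to 2.62. The neural counts were then again 11 higher and 4 lower.

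In MZspg the smallest adjusted p-value by limma belonged to the Iroquois gene irx1b (2.38, adjusted p = 0.00163). After it came her5, from the midbrain and hindbrain list (-2.95, adjusted p = 0.00248 by limma), and her9 (2.56, adjusted p = 0.00295 by limma). Then came epha4a, a receptor of the hindbrain (2.17, adjusted p = 0.00328), dlb (2.39, adjusted p = 0.00329) and sox11a (1.82, adjusted p = 0.00389). Leaving out one array gave 2.19 to 2.57 for irx1b, -3.52 to -2.39 for her5 and 1.98 to 3.14 for her9. It gave 1.87 to 2.46 for epha4a, 1.67 to 3.11 for dlb and 1.52 to 2.11 for sox11a. Without both arrays of high spike-ins sox11a differed by 1.53 and did not pass. The genes irx1b, epha4a, dlb and her5 entered the test only through the stage where they were high, so their p-values are a description. In MZspg at 30% epiboly epha4a and dlb each had an empty cell, which was filled. The probe sets of sox11a differed in sign in this comparison: the second gave -0.71 (adjusted p = 0.224) and the last 1.17 (adjusted p = 0.0499).

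In WT the smallest adjusted p-values belonged to her3 (2.62, adjusted p = 0.00509), lhx5 (3.22, adjusted p = 0.00528), irx1b (2.2, adjusted p = 0.00928) and sox2 (2.63, adjusted p = 0.00966). They were followed by the Delta gene dla, which had no value on either WT array of 30% epiboly. Its WT mean at 60% epiboly was 3.14-fold the bound (adjusted p = 0.0107 by limma with the empty cells filled). Next came gmnn, which encodes the replication inhibitor geminin (-1.37, adjusted p = 0.0180). Of these genes her3, irx1b and dla entered the test through the arrays of 60% epiboly alone, so their p-values are a description. Without WT replicate 1 of 30% epiboly, no probe set passed in WT by limma, and 1262 had an unadjusted p under 0.05. Without both arrays of high spike-ins, her3, lhx5 and dla passed (adjusted p = 0.0240, 0.0452 and 0.0271 by limma).

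Each genotype's stage difference can be set beside the other for these genes. In WT the values were 2.63 for sox2 and 2.62 for her3. In MZspg sox2 had a value on 1 of the 4 arrays and her3 on none, so no stage difference was measured there. For dlb the value was 2.39 in MZspg, and in WT 2 of the 4 cells were empty and the other two, 5.163 at 60% and 5.272 at 30% epiboly, lay under the fill value of 8.345. No neural gene and no probe set passed the test of the difference between the genotypes' stage changes (limma), where 638 probe sets had an unadjusted p under 0.05. With the empty cells filled, the adjusted p was 0.365 for sox2, 0.187 for her3 and 0.427 for dlb.

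**Figure D4:**
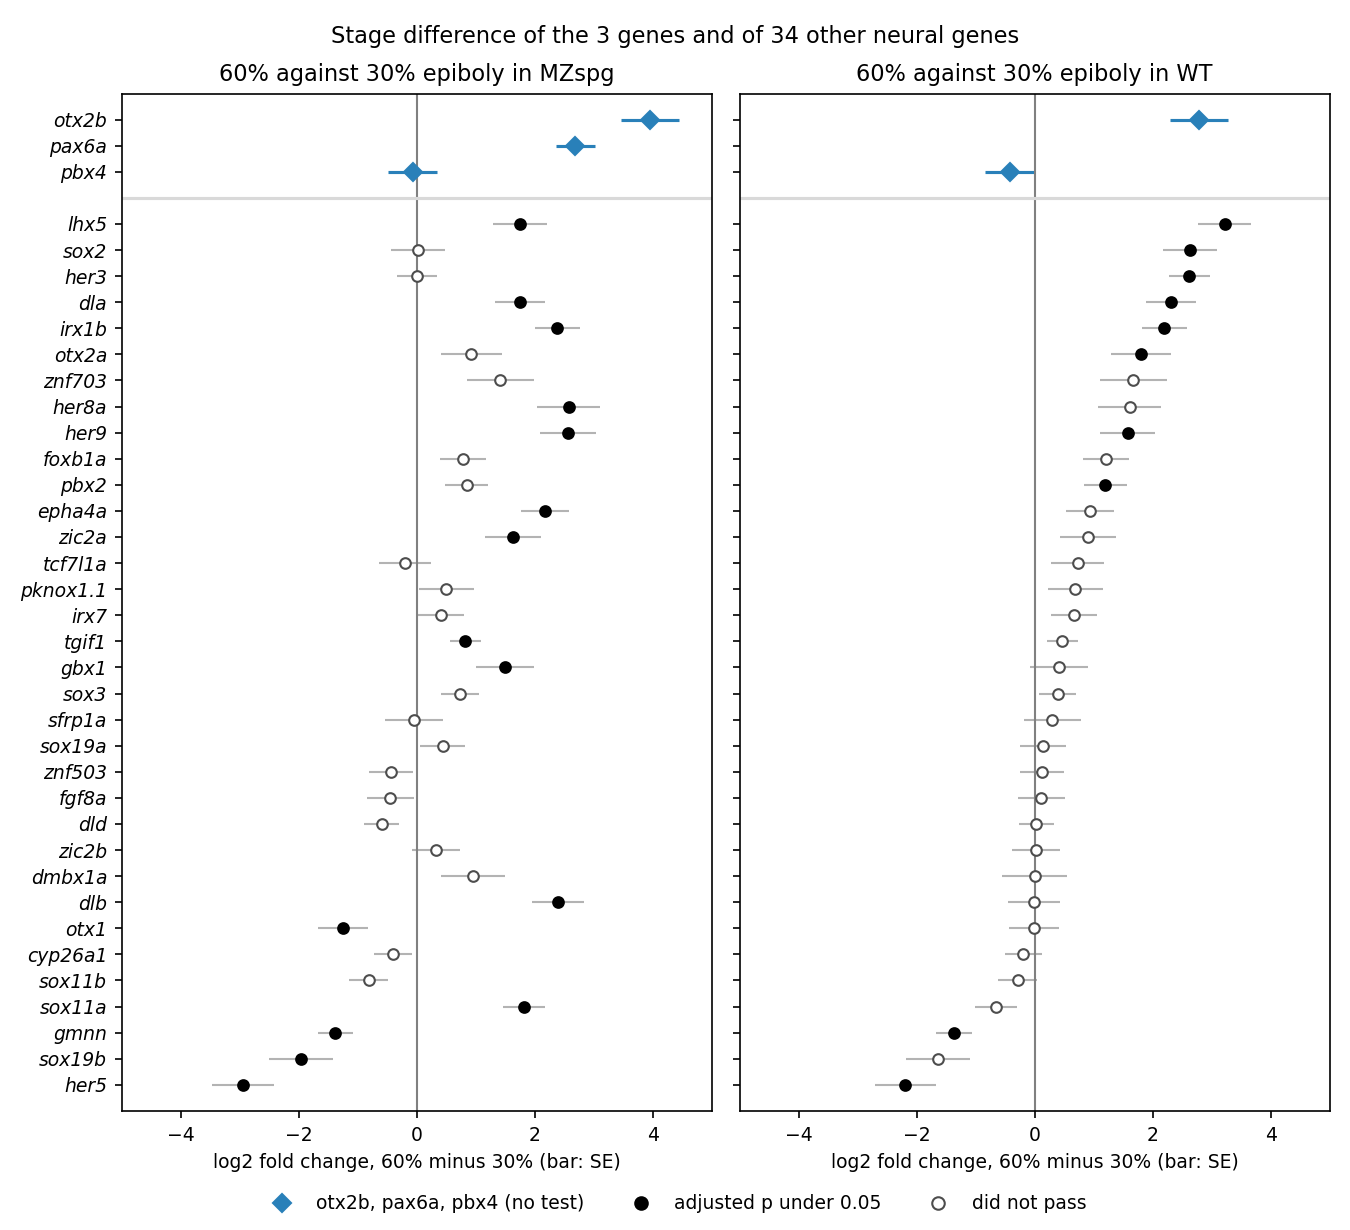
Log2 difference, 60% minus 30% epiboly, with its SE, in MZspg (left) and WT (right). Diamonds are otx2b, pax6a (in MZspg alone, as it has no WT value) and pbx4, given with no test. Circles are the 34 neural genes, black where the adjusted p by limma lay under 0.05. Empty cells are filled for both. The value of otx2b was 3.94 in MZspg and 2.78 in WT, and those of pbx4 lie near 0.

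Markers of other cells of the embryo are given beside the 3 genes. A list of genes of the anterior mesendoderm and the prechordal plate, which lies under the future forebrain, held 7 measured genes. At 60% epiboly their signals summed to 1320 and 980.1 in MZspg against 1353 and 1226 in WT. At 30% epiboly their sums were 1330 and 647.6 in MZspg against 566.3 and 941.5 in WT. None of these 7 genes passed between the genotypes by limma at either stage, and none had an unadjusted p under 0.05. The organizer gene gsc differed by -0.29 at 60% and 0.51 at 30% epiboly.

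For the enveloping layer, the outer epithelium, 8 measured genes summed to 7656 and 9554 in MZspg against 13321 and 10914 in WT at 60% epiboly, and to 6324 and 2794 against 6471 and 8526 at 30% epiboly. In MZspg 1 of 8 was higher at 60% epiboly (cldnf by 2.45) and 2 were lower at 30% epiboly (krt5 at -3.72 and anxa1a at -2.83), where 2.28% of all tested probe sets were higher at 60% and 1.27% lower at 30% epiboly. For the yolk syncytial layer the 8 genes summed to 3254 and 5363 in MZspg against 3717 and 3692 in WT at 60% epiboly, where 2 were higher (apobb.1 by 3.18 and fabp1b.1 by 2.74, against the same 2.28%), and at 30% epiboly none passed. Each of these 5 calls was lost without one or more single arrays, among them a WT array of its stage (up to an adjusted p of 0.234, for anxa1a). The higher genes cldnf, apobb.1 and fabp1b.1 reached the filter's signal of 41.03 on MZspg arrays alone. They entered the test through the genotype where they were high, so nothing is read from their counts beside the share of all probe sets. At an unadjusted p under 0.05 (limma), 6 of the 8 yolk syncytial genes were higher and 0 lower at 60% epiboly. The median log2 difference of the 8 was 1.34, against 0.01 over all tested probe sets. Of them apoa2 and slc26a1 also reached the filter's signal on MZspg arrays alone. Below 0 lay mxtx2 (-0.48) and the bright apoeb (-0.38), which held a large part of the sums. At 60% epiboly every measured gene of these lists had a value on every array, and at 30% epiboly up to 3 of the 8 yolk syncytial genes and 1 of the 8 enveloping layer genes had none. The part of these cells in the differences of otx2b, pax6a and pbx4 was not tested.

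The genes whose signals followed each of the 3 most closely over the 8 arrays were sought among 5644 probe sets with a value on every array. This is a description over 4 groups of 2 arrays, with Pearson's r of log2(signal + 9) as the measure and no p. The nearest to otx2b were pik3ip1 (r = 0.989), nipsnap1 (0.989) and zfp36l1a (0.987). The first of these read 302.2 and 265.4 in MZspg against 106.4 and 94.95 in WT at 60% epiboly, and 57.86 and 31.46 in MZspg against 19.8 and 22.77 in WT at 30% epiboly. It thus had the same order of the groups as otx2b.

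The nearest to pax6a, with 5 of its 8 values filled, were lysmd2 (r = 0.982), cmasa (0.981) and slc27a2a (0.977). At 60% epiboly slc27a2a read 76.61 and 140.9 in MZspg against 7.181 and 9.411 in WT, and it was between 5.328 and 7.67 on all arrays of 30% epiboly. The nearest to pbx4 were nenf (r = 0.979), mospd1 (0.955) and uqcrc2a (0.953). Like pbx4, nenf had higher signals on the 4 MZspg arrays (80.39 to 98.55) than on the 4 WT arrays (35.44 to 58.43).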

How the data were processed

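The authors deposited 1 linear signal intensity per probe set and array, made with MAS5, per the submitters' processing notes. The genotypes were compared by the authors with Genedata Expressionist Analyst, per the design text. Settings, any scaling between arrays and the meaning of empty cells (17.3% of cells, 14.97% to 22.43% by array) are not given in the labels or notes.

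From the deposited intensities log2(signal + 9) was computed, 9 being the 10th percentile rounded up. Such a difference understates the fold of dim genes. After removal of 30 control probe sets, the test kept the 7375 with a signal of 41.03, the 40th percentile, or more on 2 of 8 arrays. The 10th percentile, 8.345, replaced empty cells (1.222% of tested cells). Where all arrays of a group were empty, the mean of the other group is given as a fold of a bound of 24.62. This is the 95th percentile of 5319 signals whose replicate cell was empty, so it is no strict limit.

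A linear model of the 4 groups over the 8 arrays was run in limma 3.58.1 under R 4.3.3 (lmFit and trended eBayes, with 4 residual degrees of freedom and 7.674 prior ones), and the procedure was tested on simulated data. P-values are two-sided and adjusted by Benjamini-Hochberg over the tested probe sets, with calls at an adjusted p under 0.05. With 2 arrays a group, their number limits the precision. The labels call the replicates biological.

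The 3 genes and the lists were chosen with earlier results of these data known. Named were otx2b, pax6a and pbx4, pou5f3 as the check of the labels, tested relatives, up to 10 called neural genes per genotype comparison and 6 per stage comparison by smallest adjusted p, up to 2 genes per marker list, and the 3 most like genes. Other neural genes named for their signals (sox3, sox19a, zic2b, lhx5, her8a, gmnn and zic2a at 60% epiboly, and further marker genes behind a count) were picked with their values in view. The brightest probe set stood for a gene. In the annotation 9206 probe sets had 1 gene symbol, 104 several and 3137 none. All 3 genes were found by gene ID in the current gene table under the same symbol. Alternatives were another pseudocount, no filter, centred arrays, empty cells left missing, a replicate block, a term for the spike-ins, and each array left out. Leaving out both arrays of high spike-ins and a crossed block at 30% epiboly were added after seeing the data.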

Additional observations from a re-analysis of the deposited data

Results flagged for a closer look

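The brightest probe set of the SoxC gene sox11a lay in opposite directions between the stages in MZspg and WT. It was higher at 60% than at 30% epiboly in MZspg (1.82, adjusted p = 0.00389 by limma), on both arrays. In WT it was lower on both arrays (-0.66), without passing (adjusted p = 0.230 by limma). The difference between these was 2.47 (SE 0.500), which did not pass the test of the interaction (adjusted p = 0.248 by limma). The other probe sets of sox11a gave 0.04 and 1.40 for the same quantity. Their stage differences were -0.71 and 1.17 in MZspg and -0.76 and -0.22 in WT, so the probe sets disagreed.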

How the results depend on the processing

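Of the values of otx2b, pax6a and pbx4, none that had no overlap between its groups changed sign under any alternative. With a pseudocount of 32, otx2b differed between the genotypes at 60% epiboly by 2.59 and between the stages in WT by 1.75, and pax6a by 1.57 between the genotypes at 60% epiboly and by 1.65 between the stages in MZspg. With both arrays of high spike-ins left out, pax6a differed by 2.53 at 60% epiboly, and with a term for the spike-ins pbx4 differed between the stages in MZspg by 0.33. Leaving out one array gave 2.74 to 2.92 for otx2b between the genotypes at 60% and 0.80 to 2.52 at 30% epiboly, and 3.08 to 4.80 in MZspg and 2.62 to 2.93 in WT between the stages. For pax6a it gave 2.44 to 2.53 between the genotypes at 60% epiboly and 2.48 to 2.88 between the stages in MZspg. For pbx4 it gave 1.25 to 2.21 at 60% and 1.01 to 1.76 at 30% epiboly between the genotypes, and -0.40 to 0.26 in MZspg and -0.89 to 0.06 in WT between the stages. No value of pax6a between the genotypes at 30% epiboly or between the stages in WT could be had, and a fit with empty cells left missing gave none for pax6a at 60% epiboly either.

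The counts moved more. Leaving out one array gave 119 (without MZspg replicate 2 of 60% epiboly) to 757 (without MZspg replicate 1 of that stage) called probe sets between the genotypes at 60%, and 22 (without WT replicate 2) to 120 at 30% epiboly. Between the stages it gave 791 (without MZspg replicate 2 of 30% epiboly) to 2467 in MZspg and 0 to 1196 in WT, the 0 by limma without WT replicate 1 of 30% epiboly, with 1262 at an unadjusted p under 0.05. Called neural genes ran from 4 to 7 at 60% and 1 to 2 at 30% epiboly, and from 6 to 16 in MZspg and 0 to 13 in WT. With both arrays of high spike-ins left out, 32 probe sets were called between the genotypes at 60% and 76 at 30% epiboly, 688 between the stages in MZspg and 110 in WT, with 2 neural genes at 60% epiboly, 7 in MZspg and 3 in WT. With a term for the spike-ins, 615 were called at 60% epiboly and 655 between the stages in WT. Without the filter on dim probe sets 31 were called at 30% epiboly, 1 of them neural, and 211 between the stages in WT, 5 of them neural. Some of these settings also bring fewer arrays or more probe sets. The cause of the changes in the counts was not tested.

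Replicates of the same number did not deviate together (correlations from -0.333 to 0.0780 between groups), so the labels' numbers are not read as pairs. A negative value means that replicates of unlike number deviated together. The lowest, -0.333, lay between WT at 30% and WT at 60% epiboly, and such a crossed pairing was not tested there. With the replicate block, 301 probe sets were called at 60%, 113 at 30% epiboly, 2203 between the stages in MZspg and 825 in WT, with 6, 2, 14 and 8 neural genes, and the differences of the 3 genes were as without it. A crossed replicate block at 30% epiboly, added because of a correlation of -0.143 there, called 101 probe sets and 2 neural genes.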

Other observations

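Genes of the outer and yolk layers were also measured between the stages. In MZspg 5 of 8 enveloping layer genes and 5 of 8 yolk syncytial genes were higher and 0 and 1 lower at 60% than at 30% epiboly, with medians of 2.04 and 1.77 on the log2 scale. Of all tested probe sets 13.9% were higher and 18.8% lower in that comparison. In WT 1 of 8 in each of these lists was higher and 0 and 1 lower, with medians of 0.76 and 0.72, where 5.60% of all tested probe sets were higher and 8.14% lower. The called genes anxa1c, grhl1, apobb.1, apoa1a, apoa2 and fabp1b.1 reached the filter's signal on arrays of 60% epiboly alone, so nothing is read from these counts. The annexin gene anxa1c read 241.4 and 921.8 at 60% epiboly against 8.219 and an empty cell at 30% epiboly in MZspg (4.80, adjusted p = 0.000501 by limma), and 417.7 and 218.4 against 13.98 and 19.84 in WT (3.60, adjusted p = 0.00630). The MZspg call held whichever single array was left out, and the WT call was lost without replicate 1 of either stage in WT (up to an adjusted p of 0.141). The test of the difference between the genotypes' stage changes passed for none of these genes by limma, and 4 enveloping layer and 2 yolk syncytial genes had an unadjusted p under 0.05 there.

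From the list of the prechordal plate and anterior mesendoderm, hhex and foxa2 were higher at 60% epiboly in both genotypes. The differences were 2.38 in MZspg and 1.76 in WT for hhex, and 2.52 in MZspg and 1.66 in WT for foxa2. The gene hhex reached the filter's signal on arrays of 60% epiboly alone. The MZspg calls held whichever single array was left out, and the WT calls were lost without any one of 3 WT arrays for hhex and 4 for foxa2 (up to an adjusted p of 0.161 and 0.190 by limma).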
